A study of Homo sapiens with 6 samples.

Results

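Glycolysis and the response to low oxygen were followed through 34 genes, chosen by symbol for their role: 17 glycolytic enzymes, 5 genes of transport and regulation of glycolysis, and 12 genes of the hypoxia response. The table of read counts holds 17297 gene symbols, and 33 of the 34 were among them. The expression of CA9 (carbonic anhydrase IX) was not analysed here, and only its promoter sequence was searched.

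The cells were LNCaP (LnCaP in the labels), an established human prostate cancer line, made into 2 stable lines. pBabe-vector carried the empty pBabe retroviral vector with puromycin resistance and is labelled WT. pBabe-GNA13 carried wild-type GNA13 cDNA in the same vector, so that it overexpressed Gα13, the alpha subunit of a heterotrimeric G protein. Both lines were kept in RPMI medium with serum, and plates seeded with the same number of cells were grown for 48 h to a confluency of 80% before total RNA was taken, with 3 biological replicates per line. Transduced cells were kept under puromycin selection, and no oxygen level is named. Each condition was 1 stable line, and whether a line was a pool or a clone was not given, so p-values measure the spread between cultures of these lines.

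Library totals lay between 33002160 and 40628970 counts, and 3 counts corresponded to 0.0715 to 0.0935 CPM (reads scaled by library size, TMM-normalised). GNA13 checked the labels, with 818 ± 69.6 CPM (SD, n = 3) in pBabe-GNA13 and 70.5 ± 5.72 CPM (SD, n = 3) in pBabe-vector. All 10 luminal prostate markers were in the table, with summed levels of 6174 to 10184 CPM per library. The 3 basal markers KRT5, KRT14 and TP63 summed to 4.49 to 8.26 CPM in pBabe-GNA13 and 2.38 to 2.48 CPM in pBabe-vector, and KRT5 was at 0 in both replicate 2 libraries. KRT5 and KRT14 were higher in pBabe-GNA13 with the pairs as a block (edgeR adjusted p = 7.2e-07 and 1.71e-05, 0.709 and 0.142 without it). The blocked fit called 19.7% of all genes. The 4 stromal markers summed to 11.6 to 24.8 CPM, with COL1A2 at 0 in both replicate 2 libraries. In the std and replicate 3 libraries COL1A2 was at 2.57 and 2.53 CPM in pBabe-GNA13 and at 0.0477 and 0.0935 CPM in pBabe-vector. It was the 1 stromal marker of 4 called with the pairs as a block (edgeR adjusted p = 2.14e-08, 0.372 without it). Of 3 leukocyte markers 0 were in the table. Of 2 endothelial markers VWF was in the table, at 25.9, 30.5 and 14.6 CPM in pBabe-GNA13 and 19.1, 20.6 and 6.54 CPM in pBabe-vector (std, replicate 2, replicate 3). VWF was lowest in both replicate 3 libraries (edgeR adjusted p = 2.33e-09 between the pairs). It was also higher in pBabe-GNA13 with the pairs as a block (edgeR adjusted p = 8.57e-06, 0.839 without it), so it moved with both comparisons made below. VWF lies on chromosome 12, and its log2 difference in the blocked fit went from 0.67 to 0.39 with each chromosome centred on its median. The part of these other markers in the results below was not tested. The column headings give each library a number, and 1 library of each line also the tag std. The std library of pBabe-GNA13 repeats the number 2 and that of pBabe-vector has the number 1, so this pair rests on the tag alone. Libraries of the 2 lines paired by the tag, or by the number where there was none, deviated together from the mean of their line (r = 0.659 for std), whereas the std library of pBabe-GNA13 and replicate 2 of pBabe-vector did not (r = −0.03, across 12778 genes). Deviations from the mean of 3 libraries sum to 0, so those of std are fixed by those of replicates 2 and 3. The r for std thus cannot tell whether the std libraries belong together beyond the tag. The libraries are treated as 3 pairs, called std, replicate 2 and replicate 3.

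Glycolysis splits glucose into pyruvate in the cytosol and yields ATP without oxygen, and lactate dehydrogenase turns pyruvate into lactate, which monocarboxylate transporters carry out of the cell. Hypoxia-inducible factor (HIF) is a transcription factor whose alpha subunit is marked for destruction by prolyl hydroxylases when oxygen is present. When oxygen falls it binds a short DNA element and raises many genes, among them most glycolytic enzymes, glucose transporters and angiogenic factors. Normal prostate epithelium is known for secreting citrate instead of oxidising it, and prostate cancer cells for turning back to its oxidation.

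Levels of different genes were set side by side as CPM per kilobase of annotated exon, the mean of the 6 libraries. On that scale GAPDH, the enzyme that oxidises glyceraldehyde 3-phosphate, had the highest level of the 33 genes (727). ENO1, the ubiquitous enolase, followed with 294, and TPI1, triose phosphate isomerase, with 278. Of the lactate dehydrogenase subunits, LDHB stood at 174 and LDHA at 145. This order rests on the annotated exon lengths, 2983 bases for LDHB and 6026 for LDHA. Before division by length LDHA had the higher CPM in each library, so the order is uncertain. Among enzymes the lowest were ALDOA (7.42), ENO2 (10.2) and PFKP (13.4), which encode an aldolase, the enolase best known from neurons and the platelet-type phosphofructokinase. ALDOC, the aldolase best known from brain, was thus listed above ALDOA, with 23.3 against 7.42. For ALDOA 54.2% of the annotated exon bases are also in exons of other genes, and how reads shared between genes were counted was not given in the sources used here, so this order is uncertain. A pair of genes stood at the bottom of the range, ADM, which encodes the peptide adrenomedullin, with 0.228, and SLC16A3, the monocarboxylate transporter MCT4, with 0.168. These were the 2 genes of the 33 with fewer than 50 reads in at least 1 library. The other monocarboxylate transporter, SLC16A1 (MCT1), stood at 36.6.

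**Figure D1:**
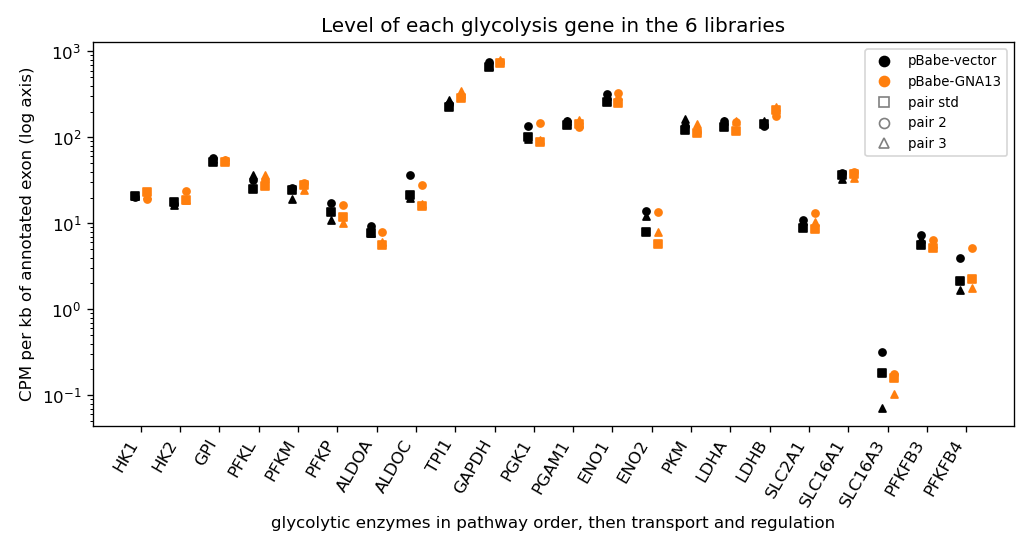
Level of the 17 glycolytic enzymes and the 5 genes of transport and regulation in each library, as CPM per kilobase of annotated exon on a log axis. Points are single libraries (black pBabe-vector, orange pBabe-GNA13, shapes for the pairs), from GAPDH at the top with a mean of 727 to SLC16A3 at the bottom with 0.168.

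The first comparison asked which of these genes differed between pBabe-GNA13 and pBabe-vector. None of the 33 was called (edgeR's quasi-likelihood test, called at a Benjamini-Hochberg adjusted p under 0.05 over all genes, as for every edgeR p given here), against 0.139% of all genes. At an unadjusted p under 0.05 there were 2, TPI1 and LDHB, against 8.46% of all genes, and DESeq2 called 1, LDHB. The log2 fold changes (log2 FC, above 0 where pBabe-GNA13 was higher) ran from −0.38 to 0.50 with a median of 0.03, and the median over all genes was −0.0013. Taking the pairs of libraries as a block removed the spread that the lines share, and 10 of the 33 were then called (30.3%, against 19.7% of all genes). All genes include those with few reads, so shares of all genes given here are not matched for level. HK2, PFKM, TPI1, LDHB, EGLN1 and KDM3A were higher in pBabe-GNA13 (6 of 33, against 9.32% of all genes) and ALDOA, ALDOC, ENO2 and PKM were lower (4 of 33, against 10.4%). These calls depended on the tool: with the same block DESeq2 called 7 of the 10, without ENO2, EGLN1 and KDM3A, and limma-trend called 1, LDHB. By role, 8 of 17 enzymes, 0 of 5 genes of transport and regulation, and 2 of 11 hypoxia-response genes were called with the block. In bulk RNA, fewer cells of a type and less RNA per cell cannot be told apart.

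**Figure D2:**
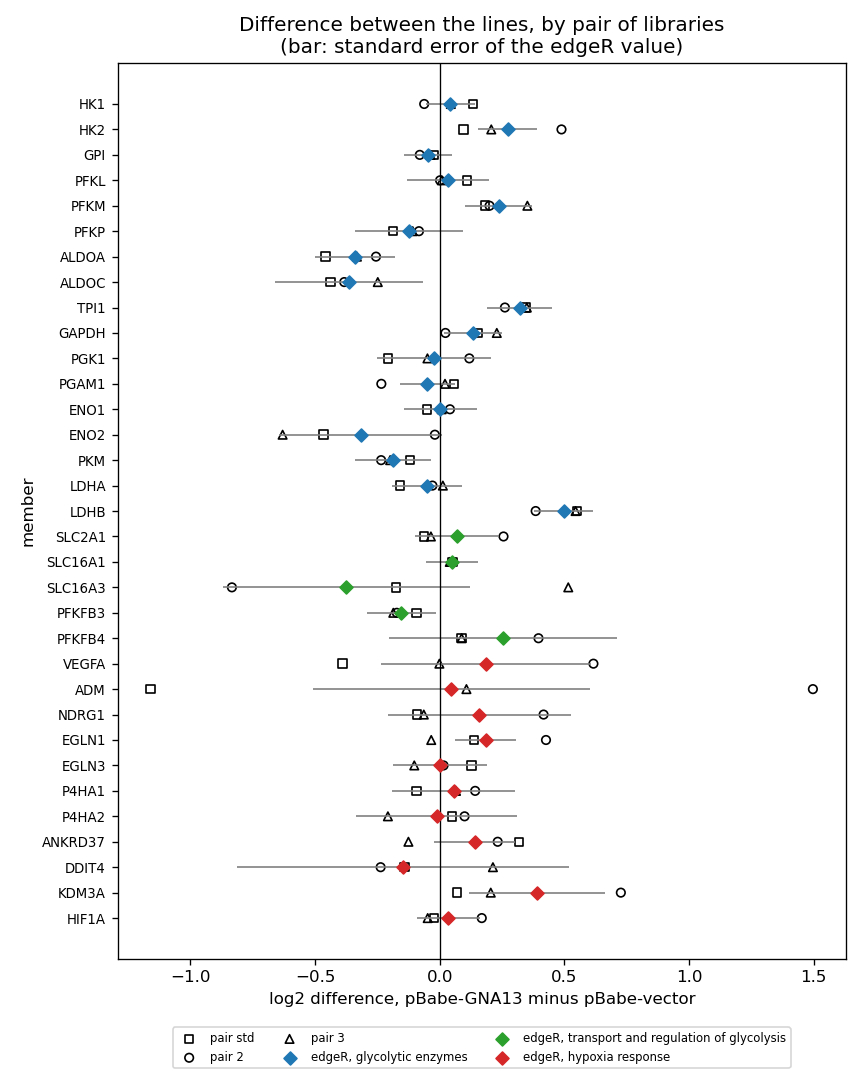
Difference between the lines for each of the 33 genes, as log2 pBabe-GNA13 minus pBabe-vector. Diamonds are edgeR values with their standard error (SE) as a bar, coloured by role, and open symbols are the 3 pairs of libraries. LDHB lies highest at 0.50 with its 3 pairs from 0.38 to 0.55, and ADM has the widest scatter, from −1.16 to 1.5.

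LDHB, the heart-type subunit of lactate dehydrogenase, had the largest difference. It was read at 618 (std), 534 (replicate 2) and 670 CPM (replicate 3) in pBabe-GNA13, and at 422, 409 and 459 CPM in pBabe-vector in the same order. Every pBabe-GNA13 library lay above every pBabe-vector library, by a factor of 1.41 between the means. The log2 FC was 0.50 (SE 0.12; edgeR adjusted p = 0.283, 5.08e-08 with the block). An exact two-sided permutation test gave p = 0.10, the smallest that 3 against 3 libraries allow. LDHA, the muscle-type subunit, was at 858 ± 125 CPM against 890 ± 78.6 CPM (SD, n = 3 each) with a log2 FC of −0.05, and it was not called in either fit. The ratio of LDHB to LDHA per kilobase was 1.75, 1.18 and 1.43 in the std, replicate 2 and replicate 3 libraries of pBabe-GNA13, and 1.07, 0.885 and 0.991 in those of pBabe-vector. This ratio was higher in pBabe-GNA13 in 3 of 3 pairs and the groups did not overlap (exact permutation test, p = 0.10, the smallest possible here). Its absolute value depends on the exon lengths used, whereas its difference between the lines on the log2 scale does not. The gene lies on chromosome 12 of GRCh38, from 21635342 to 21757857 on the minus strand in Gencode 44, and 33.4% of its exon bases are shared with another annotated gene on the same strand.

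LDHB is 1 of 5 of these genes on chromosome 12, and genes of that chromosome were higher in pBabe-GNA13 as a whole. Over 580 of its genes above a mean log2 CPM of 1, the median log2 FC was 0.29, and with the block 426 were higher and 8 lower. The blocked fit was therefore also run with the genes of each chromosome centred on their median. There 8 of the 33 genes were called (14.1% of all genes were), 3 higher and 5 lower. LDHB stayed called at a log2 difference of 0.21 (SE 0.05; edgeR adjusted p = 0.00412). With chromosomes centred but without the block, 20 of all genes and 0 of the 33 were called. LDHB was there at 0.21 as well (edgeR adjusted p = 0.916).

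TPI1 (chromosome 12, 6867119 to 6870948, plus strand) was read at 765, 791 and 945 CPM in the std, replicate 2 and replicate 3 libraries of pBabe-GNA13 and at 602, 660 and 742 CPM in those of pBabe-vector. The groups did not overlap (exact permutation test, p = 0.10, the smallest possible here). Its log2 FC of 0.32 (SE 0.13; edgeR adjusted p = 0.569, 2.14e-05 with the block) became 0.03 relative to the chromosome (edgeR adjusted p = 0.710). PFKM, the muscle-type phosphofructokinase (48105139 to 48146404, plus strand), was read at 201, 214 and 179 CPM against 177, 187 and 140 CPM. The lowest pBabe-GNA13 value lay inside the range of pBabe-vector, although the gene was higher in 3 of 3 pairs. Its log2 FC of 0.24 (SE 0.13; edgeR adjusted p = 0.747, 0.00124 with the block) became −0.04 with chromosomes centred (edgeR adjusted p = 0.656).

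GAPDH and ENO2, the remaining pair on chromosome 12, stood differently. GAPDH (6534512 to 6538374, plus strand) was read at 1738, 1816 and 1914 CPM in pBabe-GNA13 and at 1564, 1787 and 1633 CPM in pBabe-vector. The groups overlapped, and the log2 FC was 0.13 (SE 0.11; edgeR adjusted p = 0.897, 0.0593 with the block). With chromosomes centred in the blocked fit it turned to −0.15 (edgeR adjusted p = 0.0292, 0.999 when centred without the block). ENO2 (6913745 to 6923698, plus strand) was read at 24.6, 58.1 and 33.7 CPM in pBabe-GNA13 and at 34, 58.9 and 52.2 CPM in pBabe-vector. It was lower in pBabe-GNA13 in 3 of 3 pairs, by 0.47, 0.02 and 0.63 on the log2 scale, and the groups overlapped. Its log2 FC was −0.32 (SE 0.33; edgeR adjusted p = 0.912, 0.000992 with the block), and with chromosomes centred in the blocked fit it was −0.65 (edgeR adjusted p = 1.98e-06). Centred without the block, ENO2 was at −0.60 and not called (edgeR adjusted p = 0.933).

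**Figure D3:**
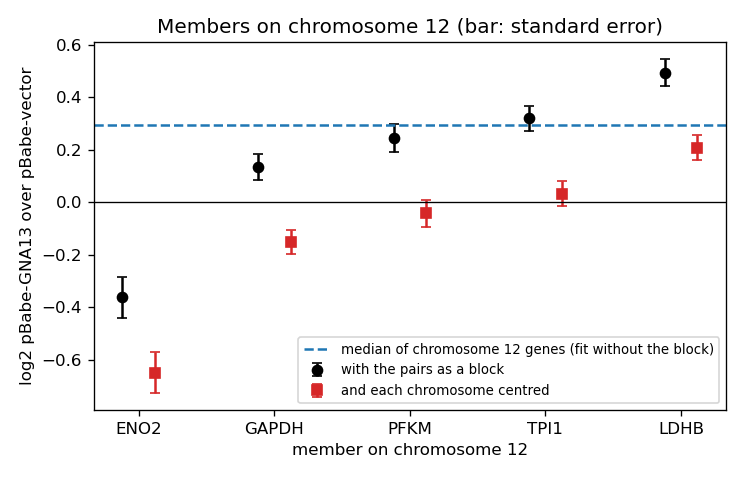
Log2 FC of the 5 genes on chromosome 12 with the pairs of libraries as a block (black circles) and with each chromosome also centred on its median (red squares). Bars are standard errors and the dashed line is the median of 580 genes of the chromosome in the fit without the block, 0.29. TPI1 and PFKM move from 0.32 and 0.24 to 0.03 and −0.04, LDHB stays above 0 at 0.21, and ENO2 lies lowest at −0.65.

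Outside chromosome 12, HK2, the inducible hexokinase that commits glucose to the cell, was read at 111, 140 and 110 CPM in pBabe-GNA13 (std, replicate 2, replicate 3) and at 104, 100 and 95.6 CPM in pBabe-vector. The groups did not overlap. HK2, TPI1 and LDHB were the 3 of 33 genes that were higher without overlap, where 7.30% of all genes were, and 0 of 33 were lower without overlap, where 6.79% of all genes were. The log2 FC was 0.27 (SE 0.12; edgeR adjusted p = 0.597, 0.00228 with the block). Without the replicate 2 pair HK2 was no longer called with the block. HK1, the constitutive hexokinase, was at 146 ± 12.9 CPM against 142 ± 3.52 CPM (SD, n = 3 each), with a log2 FC of 0.04.

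Both aldolase genes were lower in pBabe-GNA13 in 3 of 3 pairs. ALDOA was read at 21.7, 30.3 and 23.2 CPM in pBabe-GNA13 and at 29.8, 36.2 and 29.3 CPM in pBabe-vector, with the replicate 2 library the highest of each line. Its log2 FC was −0.34 (SE 0.16; edgeR adjusted p = 0.639, 0.000414 with the block). ALDOC was read at 41.6, 74.0 and 43.9 CPM against 56.4, 96.5 and 52.2 CPM. In this gene the distance between replicate 2 and the other libraries of a line was larger than the distance between the lines. The log2 FC was −0.36 (SE 0.30; edgeR adjusted p = 0.886, 1.81e-05 with the block). Neither gene separated the 2 lines when the pairs were ignored. The ratio of ALDOA to ALDOC per kilobase was 0.332 ± 0.0456 against 0.333 ± 0.0677 (SD, n = 3 each; exact permutation test, p = 0.90).

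PKM, the pyruvate kinase of most tissues, was read at 956, 1000 and 1216 CPM in pBabe-GNA13 and at 1038, 1177 and 1396 CPM in pBabe-vector. It was lower in 3 of 3 pairs with overlapping groups, a log2 FC of −0.19 (SE 0.15; edgeR adjusted p = 0.886, 0.00712 with the block). Counts per gene do not separate its M1 and M2 splice forms. Without the replicate 3 pair PKM was no longer called with the block.

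In the hypoxia response, EGLN1 and KDM3A were called with the block. EGLN1 encodes the prolyl hydroxylase PHD2, which marks HIF alpha in the presence of oxygen, and was read at 59.9, 76.3 and 59.3 CPM in pBabe-GNA13 and at 54.5, 56.8 and 60.8 CPM in pBabe-vector. KDM3A, a histone H3 lysine demethylase and HIF target, was read at 28.9, 51.6 and 25.3 CPM against 27.5, 31.2 and 22 CPM. In both genes the replicate 2 library of pBabe-GNA13 was the highest of all 6 and the other libraries of the lines overlapped. The log2 FC were 0.18 for EGLN1 (SE 0.12; edgeR adjusted p = 0.821, 0.0493 with the block) and 0.39 for KDM3A (SE 0.27; edgeR adjusted p = 0.839, 0.00457 with the block). Neither was called with the block once the replicate 2 pair was left out, and EGLN1 was not called with chromosomes centred (edgeR adjusted p = 0.150). For EGLN1 55.8% of the exon bases are shared with another annotated gene on the same strand.

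The other enzymes were not called in either fit. GPI, PFKL, PFKP, PGK1, PGAM1 and ENO1, which encode glucose 6-phosphate isomerase, the liver-type and platelet-type phosphofructokinases, phosphoglycerate kinase, phosphoglycerate mutase and enolase, had log2 FC between −0.12 (PFKP) and 0.03 (PFKL). Of the regulators, PFKFB3 and PFKFB4 set the level of fructose 2,6-bisphosphate, an activator of phosphofructokinase. PFKFB3 was lower in 3 of 3 pairs with a log2 FC of −0.15 (edgeR adjusted p = 0.903, 0.0797 with the block), and PFKFB4 was higher in 3 of 3 with 0.25 (0.982 and 0.0955, same tests). The glucose transporter gene SLC2A1 (GLUT1) was at 70.9 ± 15.4 CPM against 67.6 ± 7.51 CPM, and SLC16A1 at 236 ± 18.4 CPM against 228 ± 16.7 CPM (SD, n = 3 each). SLC16A3 had the lowest log2 FC of the 33 genes, −0.38, with a SE of 0.50 and 1 of 3 pairs higher. HIF1A, the alpha subunit itself, was at 194 ± 23.0 CPM against 190 ± 19.5 CPM (SD, n = 3 each), a log2 FC of 0.03 (edgeR adjusted p = 1.00). The other hypoxia-response genes (VEGFA, ADM, NDRG1, EGLN3, P4HA1, P4HA2, ANKRD37 and DDIT4) had log2 FC between −0.15 (DDIT4) and 0.19 (VEGFA) and were not called in either fit. ANKRD37, an ankyrin repeat gene raised by HIF, was at 6.76 ± 0.615 CPM against 6.14 ± 0.753 CPM (SD, n = 3 each), and 40.3% of its exon bases are shared with another gene. ADM was read at 0.375, 0.852 and 0.407 CPM in pBabe-GNA13 and at 0.906, 0.266 and 0.374 CPM in pBabe-vector, a scatter within which no difference could be seen at this depth. HIF1A is controlled largely at the protein level, which was not measured here.

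Glycolytic enzymes and hypoxia-response genes had medians on either side of 0 between the lines, −0.02 over 17 enzymes and 0.06 over 11 hypoxia-response genes. By pair, the median of the enzymes was −0.02 (std), −0.02 (replicate 2) and 0.01 (replicate 3). The median of the hypoxia-response genes was −0.02, 0.23 and −0.03 in the same order. Thus the higher value came from the replicate 2 pair, in which 10 of 11 hypoxia-response genes were higher in pBabe-GNA13, against 8 of 17 enzymes. Over all genes the medians were −0.0025 (std), −0.0023 (replicate 2) and 0 (replicate 3). The share of all genes higher in the replicate 2 pair is not given here. With the block and without the whole replicate 2 pair, the hypoxia-response median was −0.02 and the enzyme median −0.03. Without replicate 2 of pBabe-GNA13 alone, in the fit that ignores the pairs and keeps replicate 2 of pBabe-vector, they were −0.24 and −0.06. The genes were written down as a list, so these medians are descriptions without a test.

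VEGFA, the angiogenic growth factor, shows that pair. It was read at 112, 261 and 86.7 CPM in pBabe-GNA13 and at 146, 170 and 86.8 CPM in pBabe-vector (std, replicate 2, replicate 3). The log2 difference between the lines was thus −0.39 in the std pair, 0.62 in replicate 2 and 0.00 in replicate 3, and the fitted value was 0.19 (SE 0.42; edgeR adjusted p = 0.988, 0.647 with the block). Without the replicate 2 pair the blocked value was −0.21 (edgeR adjusted p = 0.0178). Without the std pair VEGFA was also called with the block, on the higher side.

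The second comparison asked whether the pairs of libraries differed from each other in both lines at once. In edgeR's quasi-likelihood F-test of the pair terms, with the line in the model and Benjamini-Hochberg adjustment over all genes, 25 of the 33 genes were called, 75.8% against 47.4% of all genes. The share of all genes includes those with few reads and is not matched for level. Of the 580 genes of chromosome 12 above a mean log2 CPM of 1, 365 were called. The 25 were 12 of 17 enzymes, 5 of 5 genes of transport and regulation, and 8 of 11 hypoxia-response genes. HK1, HK2, GPI, GAPDH, PGAM1, ADM, EGLN1 and ANKRD37 were not called. Calls between the pairs also depended on the tool. LDHA, LDHB, SLC2A1, SLC16A3, VEGFA, KDM3A and HIF1A lost theirs with limma-trend, and DDIT4 kept its call there at an adjusted p of 0.0169. In 14 of the 33 genes (42.4%, against 12.8% of all genes) both replicate 2 libraries lay above the other 4 libraries. They were PFKP, ALDOA, ALDOC, PGK1, ENO1 and ENO2 of the enzymes, SLC2A1, SLC16A1 and PFKFB4 of transport and regulation, and VEGFA, NDRG1, P4HA1, P4HA2 and KDM3A of the hypoxia response. HK1 was the 1 gene with both replicate 2 libraries below the rest, where 15.7% of all genes were. What separated the replicates in culture or handling is not given, and which cause lies behind the shared difference cannot be told apart from these data.

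**Figure D4:**
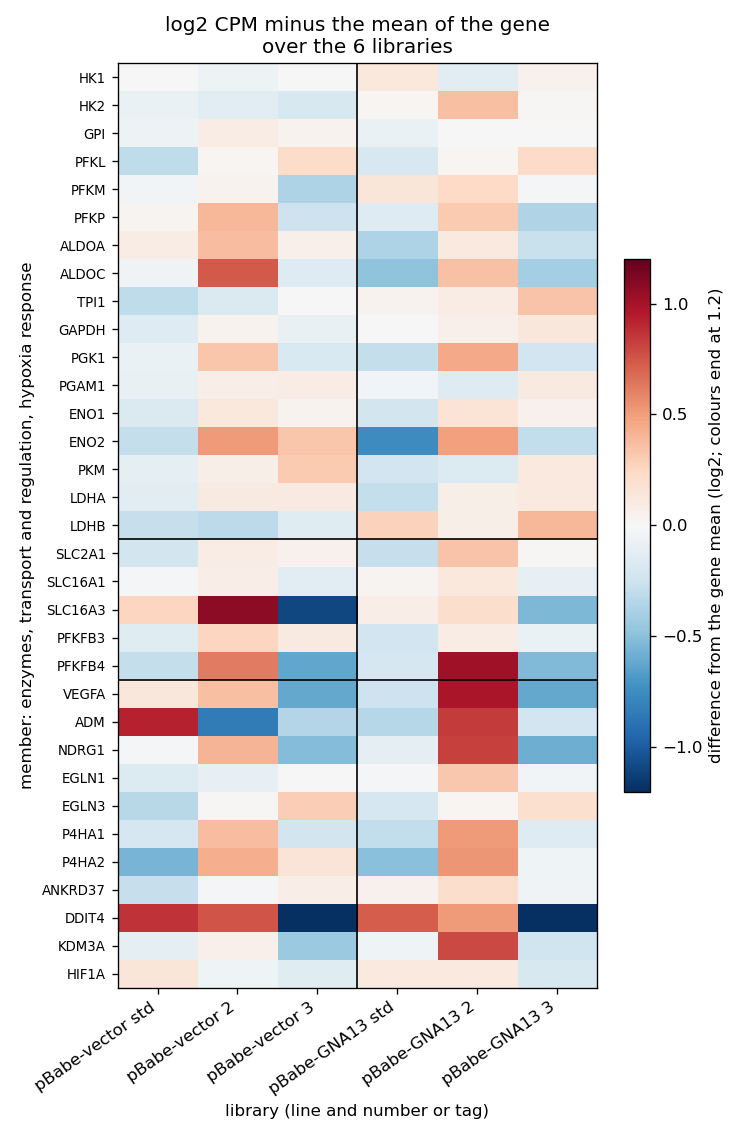
Log2 CPM of the 33 genes in the 6 libraries, each minus the mean of its gene, with colours ending at 1.2 in either direction (red above, blue below). Black lines separate enzymes, transport and regulation, and hypoxia response from top to bottom, and pBabe-vector (left) from pBabe-GNA13 (right). The replicate 2 columns of both lines are red for 14 genes in which they are the highest, and DDIT4 is blue in both replicate 3 columns.

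DDIT4, which encodes REDD1, an inhibitor of mTORC1 induced by hypoxia and other stresses, had the largest difference between pairs. It was read at 212 (std), 183 (replicate 2) and 51.1 CPM (replicate 3) in pBabe-GNA13 and at 234, 216 and 44 CPM in pBabe-vector. Both replicate 3 libraries were far below the other 4, by a factor of 4.17 against replicate 2. The log2 difference of replicate 2 over replicate 3 was 2.06 (SE 0.08; edgeR adjusted p = 1.44e-16), while between the lines the log2 FC was −0.15 (SE 0.67; edgeR adjusted p = 1.00, 0.504 with the block). Replicate 2 and std did not differ at the threshold, with a log2 difference of −0.17 (edgeR adjusted p = 0.132).

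NDRG1, a stress-responsive gene raised by hypoxia and by androgen, was read at 107, 203 and 76.8 CPM in pBabe-GNA13 and at 114, 152 and 80.2 CPM in pBabe-vector. PFKFB4 was read at 13.7, 32 and 10.9 CPM against 12.9, 24.3 and 10.3 CPM. In both genes, as in VEGFA, replicate 2 was the highest library of each line and replicate 3 the lowest. Replicate 2 lay above replicate 3 by factors of 2.25 for NDRG1, 2.64 for PFKFB4 and 2.47 for VEGFA, and the log2 differences were 1.17, 1.40 and 1.3 (SEs 0.09, 0.11 and 0.12; edgeR adjusted p at most 1.13e-09). SLC16A3 had a factor of 2.73, from 1.47, 1.62 and 0.959 CPM in pBabe-GNA13 and 1.67, 2.92 and 0.654 CPM in pBabe-vector (log2 difference 1.45, SE 0.32; edgeR adjusted p = 0.000521). Its level of a few CPM makes it the least precise of these. VEGFA and SLC16A3 were not called between the pairs with limma-trend (adjusted p = 0.0730 and 0.119).

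P4HA1 and P4HA2 encode the catalytic subunits of collagen prolyl 4-hydroxylase. P4HA1 was read at 67.2, 118 and 74.2 CPM in pBabe-GNA13 and at 71.7, 107 and 70.9 CPM in pBabe-vector. P4HA2 was read at 7.60, 15.6 and 10.4 CPM against 7.34, 14.6 and 12 CPM. The replicate 2 libraries were the highest in both lines, and the lines themselves overlapped. Among enzymes PGK1 had a like order, with 481, 804 and 502 CPM in pBabe-GNA13 and 555, 741 and 520 CPM in pBabe-vector. Replicate 2 of PGK1 lay above replicate 3 by 0.60 (SE 0.07; edgeR adjusted p = 4.37e-08) and above std by 0.58 (SE 0.07; edgeR adjusted p = 5.97e-07) on the log2 scale.

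The order of the pairs was not the same in all 33 genes. PFKL, PGAM1, PKM, LDHA and EGLN3 had both replicate 3 libraries above the other 4 (19.6% of all genes did), and of these all but PGAM1 were called in the test of the pairs. PFKL was read at 245, 285 and 328 CPM in pBabe-GNA13 and at 227, 285 and 326 CPM in pBabe-vector, so that std was lowest and replicate 3 highest in each. EGLN3, the prolyl hydroxylase PHD3 and itself a HIF target, was read at 12.8, 15 and 16.9 CPM against 11.7, 14.9 and 18.1 CPM, the reverse of the order in DDIT4. In 9 genes (PFKP, SLC16A1, SLC16A3, PFKFB4, VEGFA, NDRG1, DDIT4, KDM3A and HIF1A) both replicate 3 libraries were below the other 4, where 19.6% of all genes were.

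By role, the median log2 difference of replicate 2 over replicate 3 was 0.03 in enzymes, 0.22 in transport and regulation, and 0.51 in hypoxia-response genes, with 0 over all genes. At an edgeR adjusted p under 0.05 replicate 2 was above replicate 3 in 18 of 33 genes (21.4% of all genes) and above std in 16 (9.07% of all genes). Against std, replicate 2 had medians of 0.15, 0.47 and 0.29, with −0.02 over all genes. Replicate 2 lay above replicate 3 in both lines in 21 of the 33 genes and below it in both in 8. The same count over all genes is not given here. Across the 33 genes the difference of replicate 2 over replicate 3 in pBabe-vector and that in pBabe-GNA13, which come from separate libraries, had a Pearson r of 0.747, against 0.874 over 12778 genes above the level filter. For replicate 2 over std the values were 0.254 and 0.654. These correlations are across genes, which are not independent replicates, and are given as descriptions.

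**Figure D5:**
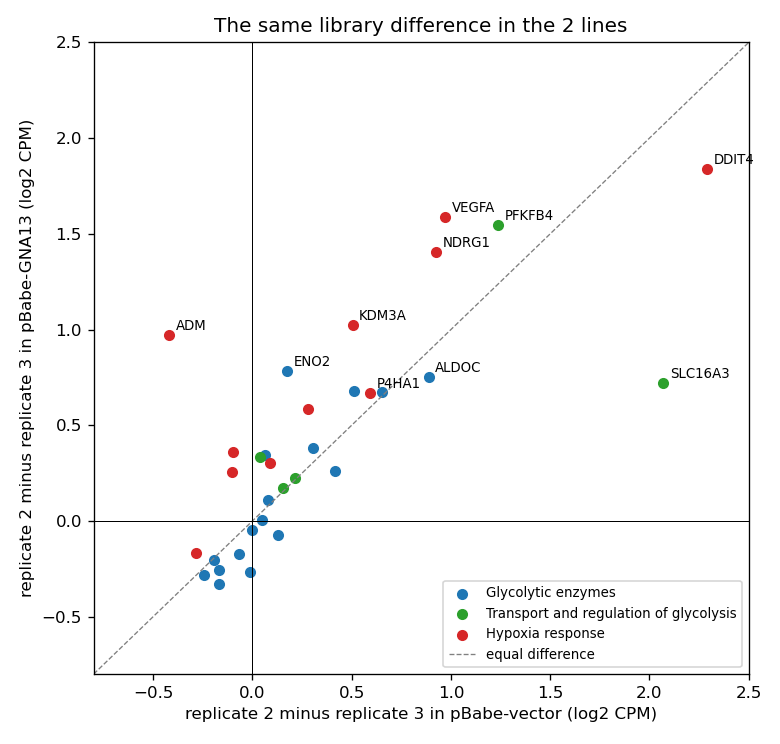
Difference of replicate 2 over replicate 3 on the log2 CPM scale in pBabe-vector (x axis) and in pBabe-GNA13 (y axis) for the 33 genes, coloured by role, with the dashed line for equal differences. DDIT4 lies furthest out at 2.29 and 1.84, while ADM, with few reads, has opposite signs of −0.42 and 0.97.

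Promoter sequence was looked at because 14 of the 33 genes were highest in the same pair of libraries. The letters searched were ACGTG on both strands, taken here as the core of the element that HIF binds, and no other form was searched. CACGT on the strand shown thus counts as a match, and CACGTG holds a match on each strand. RefSeq promoters of GRCh38.p14, from 250 bases before to 50 after each annotated start, were found for 31 of the 34 genes, CA9 included, and 18 held the letters in at least 1 promoter (58.06%), against 24.87% of 27305 genes with a promoter entry. Of 35116 single promoters 21.41% held them. The genes were chosen for roles in glycolysis and the hypoxia response, so the higher share is a description and not a test. A gene counted if any of its promoters matched, and the number of promoters, 7 each for HK1 and PFKM, was not matched. SLC16A1, VEGFA and NDRG1 had no entry. Leaving out CA9, which also had a match, 6 of 11 genes highest in both replicate 2 libraries had one (54.55%), and of the remaining ones 11 of 19 did (57.89%). A match describes letters and is not a binding site. For each of those 6 genes 1 stretch of 61 bases with a match follows, in the direction of transcription and with matches in capitals. ALDOA, ALDOC and PGK1 hold further matches that are not shown.

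PFKP, chr10:3069022-3069082, plus strand: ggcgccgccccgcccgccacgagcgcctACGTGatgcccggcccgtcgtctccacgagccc
ALDOA, chr16:30064358-30064418, plus strand: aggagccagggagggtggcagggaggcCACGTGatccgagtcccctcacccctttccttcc
ALDOC, chr17:28577085-28577145, minus strand: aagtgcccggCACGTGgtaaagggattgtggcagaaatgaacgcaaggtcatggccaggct
PGK1, chrX:78104018-78104078, plus strand: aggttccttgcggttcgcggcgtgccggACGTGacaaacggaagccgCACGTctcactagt
ENO2, chr12:6914434-6914494, plus strand: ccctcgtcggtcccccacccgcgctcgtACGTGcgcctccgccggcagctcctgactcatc
P4HA1, chr10:73096920-73096980, minus strand: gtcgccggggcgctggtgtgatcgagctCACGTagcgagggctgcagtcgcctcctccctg

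Genes that stood differently between the pairs held the letters too. GAPDH, which was not called between the pairs, and DDIT4, which was lowest in replicate 3 and alike in std and replicate 2 within the test's reach, are shown for comparison.

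GAPDH, chr12:6535156-6535216, plus strand: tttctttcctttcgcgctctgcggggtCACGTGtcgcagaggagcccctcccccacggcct
DDIT4, chr10:72273771-72273831, plus strand: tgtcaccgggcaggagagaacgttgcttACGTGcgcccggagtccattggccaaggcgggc

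The wider pathway was followed in 90 other genes, of which 79 were in the table: other isozymes, genes of pyruvate use, glucose and lactate transport, the pentose phosphate path, gluconeogenesis, oxygen sensing and other hypoxia targets. None was called between the lines (edgeR's quasi-likelihood test), 6 of the 79 had an unadjusted p under 0.05 (8.46% of all genes), and 26 of the 79 passed with the block (19.7% of all genes), of which 12 were higher and 14 lower. On the higher side SLC16A7 (the monocarboxylate transporter MCT2), PGAM5 and SLC2A13 lie on chromosome 12. SLC16A7 was at 6.96 ± 1.05 CPM against 3.71 ± 0.989 CPM (SD, n = 3 each), with a log2 FC of 0.91 (edgeR adjusted p = 0.321, 1.5e-05 with the block). It kept its call with chromosomes centred in the blocked fit (edgeR adjusted p = 0.00213). SLC2A13, a myo-inositol transporter gene, had 0.81 (edgeR adjusted p = 0.304, 0.00189 with the block, 0.0548 with chromosomes centred). PGAM5, a mitochondrial phosphatase, had 0.38 (edgeR adjusted p = 5.98e-06 with the block, 0.273 with chromosomes centred). On the lower side PDK2, an inhibitory kinase of pyruvate dehydrogenase, had −0.41 (edgeR adjusted p = 0.554, 0.000167 with the block). Against the same 19.7%, in the oxygen-sensing machinery 3 of 11 genes were called with the block, 1 higher and 2 lower, RBX1 of the VHL ubiquitin ligase among the lower ones with −0.26 (edgeR adjusted p = 0.743, 0.000492 with the block, 0.0783 with chromosomes centred). Of 28 other hypoxia targets 3 were higher and 3 lower with the block, among them LOX (lysyl oxidase), higher by 0.65 on the log2 scale in the blocked fit (edgeR adjusted p = 0.910, 0.00167 with the block). INSIG2 and EFNA3 were lower, at −0.47 and −0.35 in the blocked fit (edgeR adjusted p = 1.62e-05 and 0.000243 with the block, 0.706 and 0.702 without).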

How the data were processed

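Total RNA of LNCaP cells was sequenced in 6 libraries, 3 per line. The authors checked reads with FastQC (0.11.7), aligned them with STAR to Gencode 38 and summed them with featureCounts of Rsubread 1.30.9. The deposited values are read counts by gene symbol, all whole numbers and not normalized. Strand was not stated. All 6 columns were used and 0 were left out. One pBabe-GNA13 column carries the tag std and a number that repeats replicate 2, and could be tied to its line only. Groups came from the sample titles.

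TMM-normalized counts entered edgeR 4.0.16 (R 4.3.3; quasi-likelihood tests by glmQLFit and glmQLFTest with abundance trend) over all 17297 genes without a filter, with Benjamini-Hochberg adjustment and a threshold of 0.05. Log2 CPM used a prior count of 2. Intervals and floors cover counting error only. Pairs came from the column headings, and blocked values are given beside the calls they changed. Deviations from the line means correlated with r of 0.659 (std), 0.807 and 0.888 within pairs and −0.736 to 0.125 between them (12778 genes). The deviations sum to 0 within a line, so these r are not independent. The r for std cannot tell whether the std libraries belong together. Positions came from Gencode 44 (13709 symbols matched directly, 694 through older symbols, 2894 not at all).

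Alternatives were DESeq2 1.42.0, limma-trend (limma 3.58.1), upper-quartile scaling, filterByExpr, no trend, the newer edgeR method, chromosome centring, the block, and leaving out each library or pair. DESeq2 and limma-trend with the block were added after the data were seen. Scripts were tested on simulated counts. Figures were drawn with matplotlib 3.10.9.

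The genes described in full were those called in either fit, the 3 highest and 3 lowest log2 fold changes, the 5 largest differences between pairs, and those on chromosome 12. Of other pathway genes only called ones, at most 5 per direction, could be named. One of these is not reported here. Members, lists and tests were chosen with earlier results of these data known.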

Additional observations from a re-analysis of the deposited data

How the results depend on the processing

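Between the lines 24 genes were called, and 0 of the 33 genes of glycolysis and hypoxia. Gene counts were 280 with DESeq2, 8 without trend and 5 with limma-trend, and 2 to 15 with a library left out, where the count of the 33 genes stayed 0. Among the 33 genes DESeq2 called 1 (LDHB, adjusted p = 0.0174).

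With the pairs of libraries as a replicate block, 3407 genes and 10 of the 33 were called. With chromosomes also centred the counts were 2441 and 8, without the std pair 3266 and 13, without the replicate 2 pair 2550 and 9, and without the replicate 3 pair 2250 and 9. With the block DESeq2 called 1988 and 7, and limma-trend 433 and 1 (LDHB). ENO2, EGLN1 and KDM3A lost their call with both tools. Of the 10, 7 kept their call with chromosomes centred, 10 without the std pair, 7 without the replicate 2 pair and 9 without the replicate 3 pair. GAPDH changed sign with the block and chromosomes centred (−0.15), and VEGFA with the block and without the replicate 2 pair (−0.21).

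The enzyme median of −0.02 was −0.0458 with limma-trend (with and without the block) and with edgeR under the block −0.0456, or −0.0045 once the std pair was left out. DESeq2 under the block gave −0.0453. With a library left out it lay between −0.0882 and 0.0715, the hypoxia-response median between −0.24 and 0.22, and enzymes minus hypoxia response between −0.24 and 0.17. The turn to 0.17 came without replicate 2 of pBabe-GNA13, a fit that keeps its partner library; with the block and the whole replicate 2 pair left out the value was −0.0065. Between the pairs 8193 genes were called, 4443 with limma-trend, and of the 33 genes 25, from 18 to 29 over the alternatives.

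Of 660 values of single genes over these alternatives, 602 stayed on the same side of the threshold, 56 passed it in addition and the 2 named above were called with the other sign. In all, 70 of the values, from 21 genes, had the other sign than the reported one, and apart from those 2 none of the 70 was called. The cause was not tested. Counts under 50 limit SLC16A3 and ADM.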

Other observations

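Of the 28 other hypoxia targets, 20 were called in edgeR's quasi-likelihood F-test of the pairs of libraries and 10 were highest in both replicate 2 libraries, where 47.4% and 12.8% of all genes were. In 4 of the 28 both replicate 3 libraries lay above the others, where 19.6% of all genes were. At an edgeR adjusted p under 0.05 replicate 2 was above replicate 3 in 14 and below it in 5 (3694 and 3582 of 17297 genes). Among those 5 were TFRC and HILPDA, with log2 differences of −0.75 and −0.54. The 3 genes that follow were chosen from the 10 highest in replicate 2 after their values were seen. BNIP3, a mitophagy receptor, was read at 242 (std), 566 (replicate 2) and 194 CPM (replicate 3) in pBabe-GNA13 and at 296, 491 and 213 CPM in pBabe-vector. PPFIA4, a liprin, was read at 1.53, 9.84 and 1.45 CPM against 2.5, 7.03 and 1.68 CPM. MXI1, an antagonist of MYC, was read at 48.2, 72.7 and 37.9 CPM against 51.7, 69.6 and 36.1 CPM. In all 3 genes replicate 2 was the highest library of each line, with log2 differences over replicate 3 of 1.38 for BNIP3, 2.43 for PPFIA4 and 0.94 for MXI1 and edgeR adjusted p of at most 3.22e-10 in the test of the pairs.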
